A study of Mus musculus with 18 samples.

Results

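The genes described here carry the death signal that a killer cell or a death ligand sends into a target cell, or blunt it. They were a given list of 10. It held the death ligand Tnfsf10, the receptors Tnfrsf10b, Tnfrsf1a and Fas, and the adaptor Fadd. It also held the initiator protease Casp8, its inhibitory relative Cflar and its substrate Bid. The serpins Serpinb9 and Serpinb6a were on it under the heading of granzyme inhibitors. The 10 genes were picked by name out of 50686 listed genes, and all 10 passed the filter on low counts. RNA was sequenced from E0771 cells, a mouse mammary tumor line labelled as triple-negative breast cancer, in 18 libraries from 3 lines and 2 treatments. The cntrl line carried a control hairpin, the shCdk8-1 line the hairpin CDK8.1593 and the shCdk8-2 line the hairpin CDK8.1830. Each line was kept for 48 h in the solvent DMSO or in 1 µM Senexin B (SnxB), an inhibitor of the kinases CDK8 and CDK19, with 3 libraries per group. All lines, cntrl included, also carried a lentiviral firefly luciferase selected with puromycin, and the hairpins came from a retrovirus whose mCherry marker was used to sort the cells. Each hairpin is thus 1 transduced and sorted population, so the effect of a hairpin and that of its line cannot be told apart. The labels do not say that the 3 libraries of a group came from separate cultures, and p-values measure the spread between these libraries, which may be technical.

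Death receptors sit in the cell membrane and, once bound by their ligand, gather FADD and procaspase-8 into a signaling complex in which caspase-8 activates itself. The protein c-FLIP, product of Cflar, takes the place of caspase-8 in that complex and can hold it back. Caspase-8 also cuts BID, whose fragment passes the signal on to mitochondria. NK cells and cytotoxic T cells use these receptors and, in parallel, inject granzymes, which intracellular serpins such as SERPINB9 bind and inactivate.

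Libraries held between 16452260 and 22664693 counted reads with a median of 19029320, at which 3 reads correspond to 0.1324 to 0.1823 CPM (counts scaled to a common library size). Cdk8, the targeted gene, was at 56.1 ± 2.13 CPM in cntrl, 21.4 ± 2.44 in shCdk8-1 and 38.9 ± 0.376 in shCdk8-2 cells in DMSO (SD, n = 3), and its 3 ranges did not overlap. The log2 fold change of Cdk8 was -1.39 ± 0.07 (SE) in shCdk8-1 and -0.54 ± 0.06 in shCdk8-2 cells, and its homologue Cdk19 was higher by 0.42 and 0.12 (adjusted p = 5.8e-08 and 0.00989). Killer lymphocyte markers were near 0: the 10 genes summed to at most 0.557 CPM in any library, and Gzma, Gzmb, Gzmk, Ncr1 and Cd8a had no read in any library. Of 6 markers of mammary tumor cells, only Vim was abundant throughout (group means 3694.1 to 4431.4 CPM), while the group means of Krt18, Krt19 and Epcam were at most 0.294 CPM and Krt8 was at 0.0549 CPM in cntrl, 7.51 in shCdk8-1 and 13 in shCdk8-2 cells in DMSO. Pgr had no read, and Erbb2 was at 47.3 to 55.8 CPM. Esr1 was at 23.1 CPM in cntrl cells in DMSO but at 1.25 and 0.951 CPM in the shCdk8 lines. The epithelial markers of a mammary tumor line were thus not found in cntrl, and Esr1 transcript was present there. These are RNA levels, and receptor protein was not measured in these libraries, so the triple-negative label was not tested. The myeloid list summed to 4.93 to 8.62 CPM. The fibroblast and endothelial list summed to 409.4 to 732.8 CPM, mostly Pdgfra and Pdgfrb, and was lower in the shCdk8 lines (409.4 to 460.6 CPM in DMSO) than in cntrl (551.3 to 561.0). Its other members went both ways in DMSO, given as group means. Col1a1 rose from 0.78 CPM in cntrl to 16.6 in shCdk8-1 and 9.91 in shCdk8-2 cells. Pecam1 rose from 0.286 to 14.3 and 5.85 CPM, while Cdh5 fell from 4.34 to 0.206 and 0.595 CPM. The part of these line differences in the results below was not tested.

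In cntrl cells in DMSO the 10 genes spanned a wide range of levels per kilobase of exon (RPKM). Tnfrsf1a, the main TNF receptor, was highest at 69.1 ± 0.77 RPKM, followed by Serpinb6a at 39.0 ± 2.65 and Casp8 at 25.1 ± 0.419. Serpinb9 at 7.94 ± 0.369, Tnfrsf10b at 6.96 ± 0.213, Bid at 6.92 ± 0.083, Cflar at 6.49 ± 0.15 and Fadd at 6.15 ± 0.333 RPKM lay close together. The libraries of Tnfrsf10b and Bid overlapped on this scale, as did those of Cflar and Fadd. The length used for Cflar, 12669 bases, counts every listed exon of its many transcripts and understates its level. Fas followed at 1.48 ± 0.167 RPKM, and Tnfsf10 was lowest at 0.0494 ± 0.031.

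**Figure D1:**
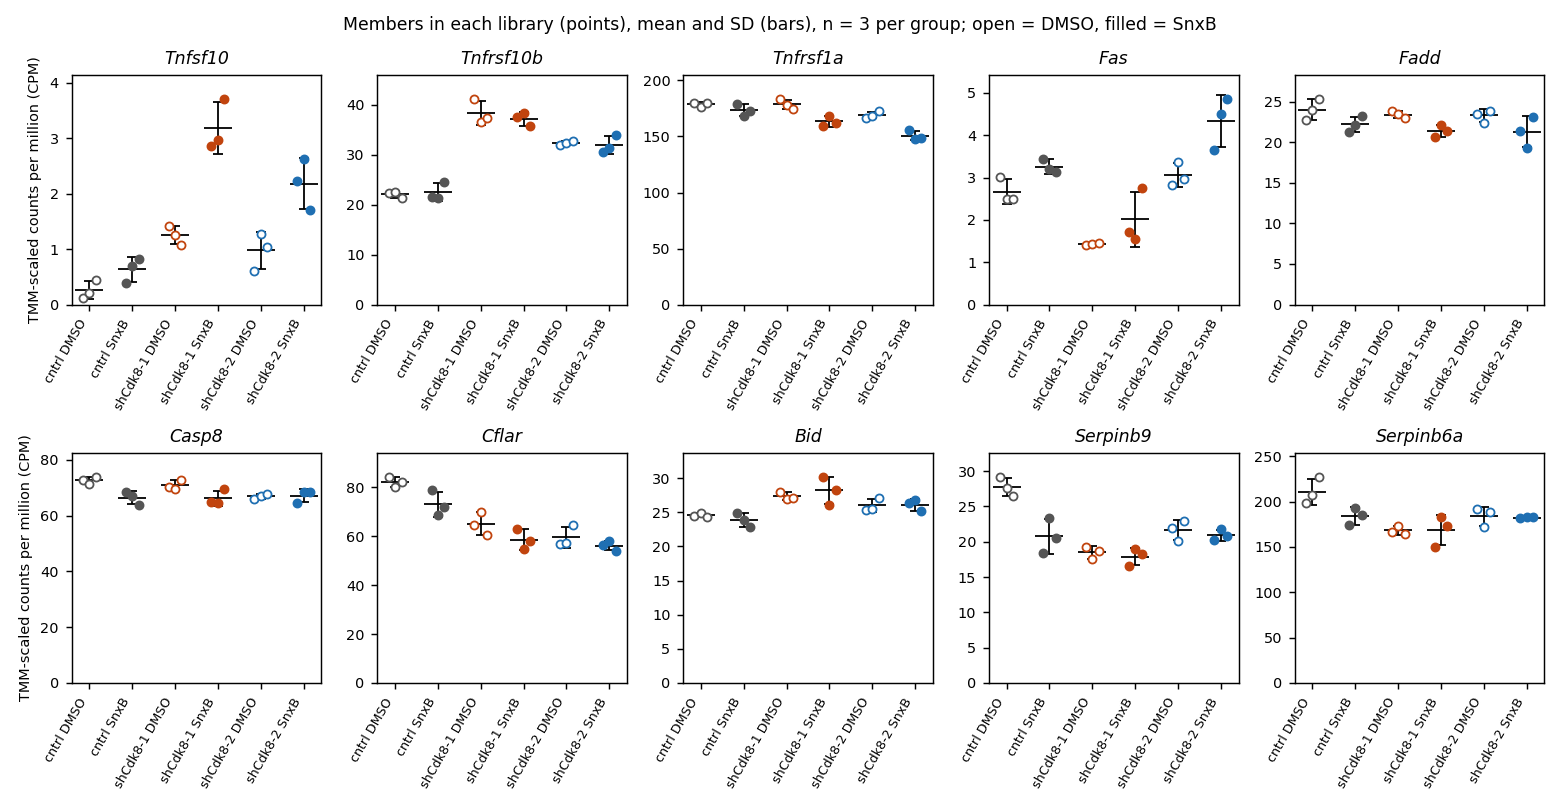
Level of each of the 10 genes in the 18 libraries. Each point is 1 library, in TMM-scaled CPM on a linear axis from 0, open for DMSO and filled for SnxB, with the group mean and SD as black bars (n = 3). Tnfsf10 climbs from 0.26 CPM in cntrl DMSO to 3.18 in shCdk8-1 SnxB, Tnfrsf10b forms 1 step per line, and Fas is lowest in shCdk8-1.

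Tnfsf10, which encodes the ligand TRAIL, was upregulated in both shCdk8 lines and was the only one of the 10 genes deregulated there by the rule of an adjusted p under 0.05 with a fold above 2, which 12.3% of all genes tested met in shCdk8-1 and 10.8% in shCdk8-2. It lies on chr3:27317028-27342427 of GRCm38, plus strand. In cntrl cells in DMSO the libraries had 0.123, 0.217 and 0.441 CPM, that is 2, 4 and 9 reads. In shCdk8-1 cells they had 1.41, 1.25 and 1.08 CPM, and in shCdk8-2 cells 0.609, 1.28 and 1.04 CPM. Every library of the shCdk8 lines stood above every cntrl library. The log2 fold change was 2.18 ± 0.41 in shCdk8-1 (4.52-fold, adjusted p = 0.000249) and 1.79 ± 0.43 in shCdk8-2 (3.45-fold, adjusted p = 0.00219), both against the same cntrl libraries. Without cntrl DMSO replicate 3, the one with 9 reads, these values were 2.81 and 2.43, and the calls held. The summed reads, 73 and 58 against 15, gave ratios of 4.61 (95% exact interval 2.62 to 8.65) and 3.5 (1.96 to 6.66), intervals that cover counting error only. Per kilobase of exon TRAIL mRNA remained the lowest of the 10 genes in each of the 6 groups. In shCdk8-1 SnxB this rank depends on the exon lengths used, 5266 bases for Tnfsf10 and 1801 for Fas. Without division by length, Tnfsf10 was above Fas in that group, at 3.18 against 2.01 CPM. In bulk RNA, a smaller or larger share of expressing cells and less or more RNA per cell cannot be told apart.

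With SnxB the values of Tnfsf10 were positive in each line, and they passed the test in both shCdk8 lines. In cntrl cells the SnxB libraries had 0.383, 0.696 and 0.82 CPM, and the range overlapped that in DMSO. The log2 fold change there was 1.22 ± 0.47 and missed the threshold (adjusted p = 0.17). In shCdk8-1 cells SnxB gave 2.85, 2.97 and 3.7 CPM, all above DMSO, with a log2 fold change of 1.34 ± 0.24 (2.53-fold, adjusted p = 0.0047). In shCdk8-2 cells it gave 2.22, 2.62 and 1.71 CPM, again all above DMSO, with 1.19 ± 0.27 (2.28-fold, adjusted p = 0.0223). The call in shCdk8-2 was lost without the DMSO replicate 1 or 3 or the SnxB replicate 1 or 2 of that line, with adjusted p up to 0.147. The difference between the SnxB effects in shCdk8-1 and cntrl cells was 0.12 ± 0.63 on the log2 scale (adjusted p = 0.967). Averaged over the 3 lines, a contrast added after the data were seen, the SnxB effect was 1.25 ± 0.20 (2.37-fold, adjusted p = 0.000196). The group means thus ran, from low to high, cntrl DMSO at 0.26 ± 0.163 CPM, cntrl SnxB at 0.633 ± 0.225, shCdk8-2 DMSO at 0.976 ± 0.338, shCdk8-1 DMSO at 1.25 ± 0.163, shCdk8-2 SnxB at 2.18 ± 0.454 and shCdk8-1 SnxB at 3.18 ± 0.461. Both cntrl groups overlapped each other, cntrl SnxB overlapped shCdk8-2 DMSO, and the DMSO groups of both shCdk8 lines overlapped, whereas in SnxB the lines shCdk8-2 and shCdk8-1 did not overlap (log2 difference -0.54 ± 0.22, adjusted p = 0.094).

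Tnfrsf10b, the mouse TRAIL receptor that carries a death domain, was upregulated in both shCdk8 lines and did not pass the test with SnxB in any line. It lies on chr14:69767472-69784403, plus strand. Cntrl cells in DMSO had 22.3, 22.6 and 21.3 CPM. The shCdk8-1 libraries had 41.1, 36.6 and 37.4 CPM, and the shCdk8-2 libraries 31.9, 32.3 and 32.8 CPM. The 3 lines did not overlap in DMSO. The log2 fold change was 0.80 ± 0.06 in shCdk8-1 (1.74-fold, adjusted p = 2.4e-08) and 0.54 ± 0.07 in shCdk8-2 (1.46-fold, adjusted p = 2.82e-06). In SnxB the same comparisons gave 0.73 ± 0.06 and 0.50 ± 0.06 (adjusted p = 3.73e-09 and 1.04e-06). The shCdk8-2 line was lower than shCdk8-1 by 16.1% in DMSO (log2 difference -0.25 ± 0.06, adjusted p = 0.00772), a call lost without shCdk8-1 DMSO replicate 1 (adjusted p = 0.0536). In SnxB it was lower by 14.3% (adjusted p = 0.0122), a call lost without the shCdk8-2 replicate 1 or 2 (0.069 and 0.0562). Each SnxB effect within a line was under 0.10 on the log2 scale. Of the 50-base stretches of its GENCODE transcripts, 6.21% also occur in transcripts of other genes, and reads from such stretches can be dropped in counting. These transcripts held 5445 stretches beside 3171 counted exon bases, so the value is not the share of counted positions.

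Fas, the receptor of FasL, differed between both shCdk8 lines. It lies on chr19:34290659-34327770, plus strand. In DMSO the cntrl libraries had 3.02, 2.49 and 2.5 CPM, the shCdk8-1 libraries 1.41, 1.42 and 1.45 CPM, and the shCdk8-2 libraries 2.83, 3.37 and 2.96 CPM. All shCdk8-1 libraries lay below the others, while shCdk8-2 overlapped cntrl. Fas was downregulated in shCdk8-1 by 46.2% (log2 fold change -0.90 ± 0.16, adjusted p = 0.000134), and in shCdk8-2 the value was 0.19 ± 0.14 (adjusted p = 0.301). The direct comparison of shCdk8-2 with shCdk8-1 gave 1.09 ± 0.15 (2.12-fold, adjusted p = 9.73e-05). In SnxB the libraries had 3.44, 3.2 and 3.13 CPM in cntrl, 1.72, 1.55 and 2.75 CPM in shCdk8-1, and 3.65, 4.5 and 4.85 CPM in shCdk8-2 cells. In SnxB the 3 lines did not overlap, with log2 differences from cntrl of -0.69 ± 0.18 in shCdk8-1 (adjusted p = 0.0025) and 0.40 ± 0.16 in shCdk8-2 (adjusted p = 0.0326), and of 1.09 ± 0.17 between the shCdk8 lines (adjusted p = 0.000109). The value for shCdk8-2 against cntrl in SnxB did not pass with DESeq2 (adjusted p = 0.122), nor without the filter, nor without cntrl SnxB replicate 2 or 3 or shCdk8-2 SnxB replicate 2 or 3 (up to 0.122). Within each line all SnxB libraries exceeded all DMSO libraries, with log2 fold changes of 0.29, 0.50 and 0.50 that each missed the threshold (adjusted p = 0.298, 0.284 and 0.127 in cntrl, shCdk8-1 and shCdk8-2). The effect averaged over the 3 lines was 0.43 ± 0.10 (1.35-fold, adjusted p = 0.00943). From 83 to 235 reads per group stand behind these values.

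Tnfrsf1a, the receptor through which TNF reaches both the survival and the death branch, changed little. It lies on chr6:125349362-125362484, plus strand. Its group means lay between 150.6 ± 4.12 CPM in shCdk8-2 SnxB and 179.0 ± 1.99 in cntrl DMSO, the second coming from libraries at 180.1, 176.7 and 180.3 CPM. It was 5.9% lower in shCdk8-2 than in cntrl cells in DMSO (adjusted p = 0.0317) and within 0.10 on the log2 scale of cntrl in shCdk8-1. The shCdk8-2 value failed the threshold with DESeq2 (adjusted p = 0.0762), without the filter (0.123) and with scaling to library totals (0.193), and was lost in 11 of 19 alternatives in all. SnxB lowered it by 10.9% in shCdk8-2 cells, where the libraries went from 166.7, 168.4 and 172.4 to 155.4, 148.2 and 148.3 CPM (log2 fold change -0.17 ± 0.03, adjusted p = 0.0111). That call was lost without the filter and without shCdk8-2 DMSO replicate 2 or 3 or SnxB replicate 2 or 3 (adjusted p up to 0.0919). In shCdk8-1 cells the value was -0.13 ± 0.03 (adjusted p = 0.0687), and averaged over the 3 lines it was -0.11 ± 0.02, a decrease of 7.6% (adjusted p = 0.000578). In SnxB it was lower than in cntrl by 5.7% in shCdk8-1 (adjusted p = 0.0388, lost in 14 of 25 alternatives) and by 13.1% in shCdk8-2 cells (adjusted p = 4.2e-05).

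The adaptor and the initiator protease were the steadiest of the 10 genes. Fadd, on chr7:144577318-144582463, minus strand, had group means between 21.3 ± 1.91 and 24 ± 1.3 CPM and did not pass the test in any comparison of lines. Each of its 3 SnxB values was negative (-0.12, -0.13 and -0.13 on the log2 scale, none past the threshold), and their average was a decrease of 8.4% (log2 -0.13 ± 0.04, adjusted p = 0.0327). Casp8, on chr1:58795374-58847503, plus strand, had group means between 66.3 ± 2.71 and 72.7 ± 1.21 CPM. It was 8.3% lower in shCdk8-2 than in cntrl cells in DMSO (log2 -0.12 ± 0.04, adjusted p = 0.0105, lost without shCdk8-2 DMSO replicate 1, without the filter and with library totals, at up to 0.0598) and within 0.10 of cntrl in shCdk8-1. The SnxB effect on Casp8 in cntrl cells was -0.13 ± 0.04 (adjusted p = 0.0668), and averaged over the lines it was a decrease of 5.0% (adjusted p = 0.0462). The averaged Casp8 call was lost in 17 of 25 alternatives and that of Fadd in 13 of 25.

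Cflar, which encodes the caspase-8 inhibitor c-FLIP, was downregulated in both shCdk8 lines. It lies on chr1:58711508-58758884, plus strand, its end 36490 bases before the start of Casp8. In DMSO the cntrl libraries had 84.1, 80.3 and 82.3 CPM, the shCdk8-1 libraries 64.6, 70 and 60.6 CPM, and the shCdk8-2 libraries 56.8, 57.2 and 64.7 CPM. No library of either shCdk8 line reached the lowest cntrl library. The decrease was 21.0% in shCdk8-1 (log2 -0.34 ± 0.06, adjusted p = 0.000178) and 28.0% in shCdk8-2 cells (-0.47 ± 0.06, adjusted p = 7.77e-06). In SnxB the corresponding decreases were 19.6% and 23.1% (adjusted p = 0.000273 and 4.34e-05). SnxB within a line gave -0.17 ± 0.06 in cntrl (78.8, 68.7 and 71.9 CPM, all below DMSO, adjusted p = 0.137) and -0.15 ± 0.06 in shCdk8-1 (adjusted p = 0.312), and averaged over the lines a decrease of 8.8% (adjusted p = 0.0236). The averaged call was lost without shCdk8-1 DMSO replicate 2, cntrl SnxB replicate 2 or shCdk8-1 SnxB replicate 2 (adjusted p up to 0.0585).

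Bid, which links caspase-8 to mitochondria, was slightly higher in shCdk8-1 cells. It lies on chr6:120891930-120916853, minus strand. In DMSO the cntrl libraries had 24.5, 24.9 and 24.3 CPM, the shCdk8-1 libraries 28, 27 and 27.1 CPM, and the shCdk8-2 libraries 25.3, 25.5 and 27.1 CPM. Both shCdk8 lines stood above cntrl without overlap. The increase passed in shCdk8-1 (11.3%, log2 0.15 ± 0.05, adjusted p = 0.0218, lost with DESeq2 at 0.0803, without the filter at 0.106 and without cntrl replicate 3 or shCdk8-1 replicate 1 at 0.051 and 0.0676). In shCdk8-2 cells the difference from cntrl was under 0.10 on the log2 scale. In SnxB the increase in shCdk8-1 was 18.1% (adjusted p = 0.00126), and in shCdk8-2 the value was 0.13 ± 0.06 (adjusted p = 0.0647).

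**Figure D2:**
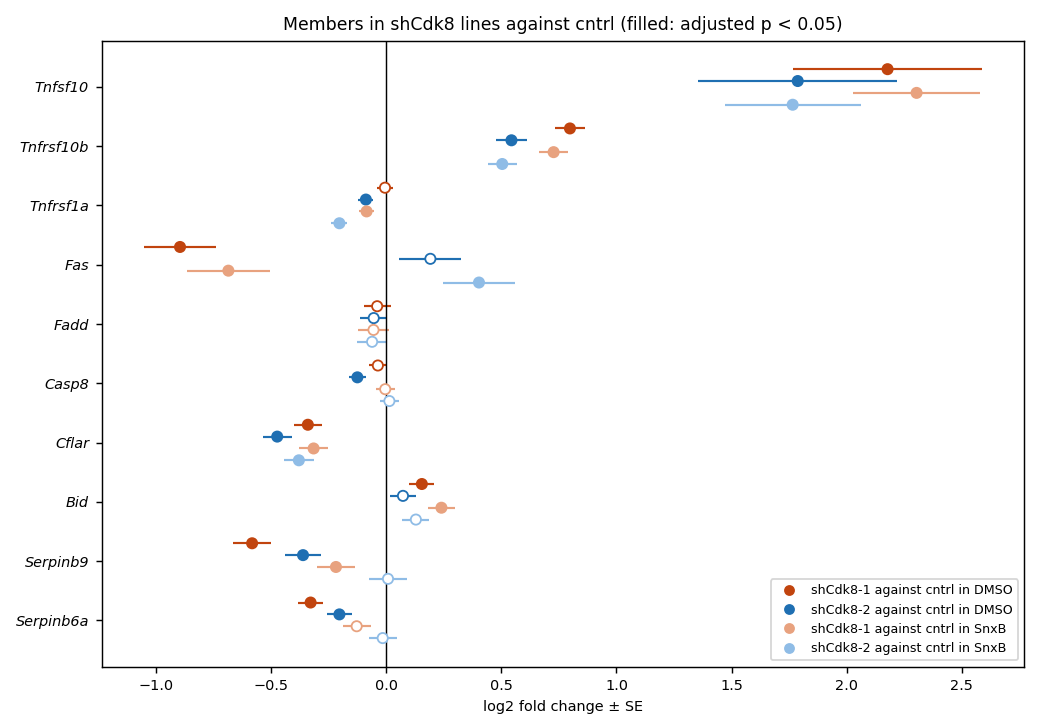
Log2 fold change (x axis) of each gene in the shCdk8 lines against cntrl, in DMSO (dark) and in SnxB (light). Bars are SE and filled points have an adjusted p under 0.05. Tnfsf10 and Tnfrsf10b lie to the right and Cflar to the left in all 4 comparisons, while Fas lies left for shCdk8-1 and right for shCdk8-2.

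Serpinb9, the inhibitor of granzyme B, was lower than in cntrl DMSO in both shCdk8 lines and in SnxB-treated cntrl cells. It lies on chr13:33003250-33017957, plus strand. The cntrl libraries in DMSO had 29.1, 27.6 and 26.5 CPM. In DMSO the shCdk8-1 libraries had 19.3, 17.5 and 18.7 CPM and the shCdk8-2 libraries 22, 20.1 and 22.9 CPM. SnxB brought cntrl cells to 18.4, 23.3 and 20.5 CPM. All 9 of these libraries lay below the lowest cntrl DMSO library. The decrease was 33.2% in shCdk8-1 (log2 -0.58 ± 0.08, adjusted p = 1.28e-05), 22.1% in shCdk8-2 (-0.36 ± 0.08, adjusted p = 0.00107) and 24.8% with SnxB in cntrl cells (-0.41 ± 0.08, adjusted p = 0.00549). In the shCdk8 lines the SnxB means, 17.9 ± 1.26 and 20.9 ± 0.808 CPM, were within 0.10 on the log2 scale of DMSO. The SnxB effect differed from that in cntrl by 0.36 ± 0.11 for either line, with unadjusted p of 0.00492 for shCdk8-1 and 0.00427 for shCdk8-2 that did not survive adjustment (0.288 and 0.482). Averaged over the 3 lines the SnxB effect was a decrease of 11.2% (adjusted p = 0.0202, and 0.0507 without shCdk8-1 DMSO replicate 1). In SnxB, shCdk8-1 cells were 14.0% below cntrl (adjusted p = 0.0273, lost with library totals at 0.109 and without cntrl replicate 2 or 3 or shCdk8-1 replicate 1 at up to 0.194), and shCdk8-2 cells were within 0.10 of cntrl.

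Serpinb6a, a cytosolic serpin of the same clade that inhibits several serine proteases, followed with smaller differences. It lies on chr13:33917918-34002794, minus strand, 899961 bases beyond Serpinb9. The cntrl libraries in DMSO had 198.5, 207.1 and 226.5 CPM, against 166.5, 173.4 and 164.7 CPM in shCdk8-1 and 191.5, 172.1 and 188.2 CPM in shCdk8-2 cells. Neither shCdk8 line overlapped cntrl. The decrease was 20.3% (adjusted p = 5.86e-05) and 13.1% (adjusted p = 0.00381). SnxB in cntrl cells gave 173.7, 193.3 and 185.6 CPM, a decrease of 12.6% (log2 -0.19 ± 0.05, adjusted p = 0.0449) that was lost in 10 of 19 alternatives, among them leaving out cntrl DMSO replicate 3 (adjusted p = 0.183) and a fit blocked on replicate numbers (0.0696). In SnxB the difference of shCdk8-1 from cntrl was -0.13 ± 0.06 (adjusted p = 0.0781). The serpins have near copies, but 0.38% of the 50-base stretches of Serpinb9 transcripts and 0.75% of those of Serpinb6a occur in other genes.

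Cflar, Serpinb9 and Serpinb6a fell in both shCdk8 lines in DMSO, and their promoters were read for short motifs together with those of the other genes. RefSeq promoters (GRCm38.p6, 250 bases before to 50 after the transcript start) were found for 9 of the 10 genes, with a pair for Serpinb6a, and not for Tnfrsf10b. The core of the interferon-stimulated response element, GAAANNGAAA on either strand, is in 3.44% of all 32851 promoters. Among the 10 promoters examined it is in 3, those of Cflar, Serpinb9 and Serpinb6a, at positions 7 to 16, -46 to -37 and -84 to -75 counted from a first transcribed base of 1. The motifs were chosen after the values of the genes had been seen, so the match is a description. These 3 promoters are shown with the motif in capitals, and that of Tnfsf10, the gene with the largest change, follows without a match to this motif.
Cflar, chr1:58711241-58711540, plus strand: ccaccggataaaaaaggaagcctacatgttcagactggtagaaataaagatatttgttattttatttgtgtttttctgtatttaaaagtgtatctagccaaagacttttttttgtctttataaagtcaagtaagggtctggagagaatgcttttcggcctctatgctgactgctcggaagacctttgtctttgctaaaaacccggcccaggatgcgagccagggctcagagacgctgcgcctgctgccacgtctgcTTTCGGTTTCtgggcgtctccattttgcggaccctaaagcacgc
Serpinb9, chr13:33004291-33004590, plus strand: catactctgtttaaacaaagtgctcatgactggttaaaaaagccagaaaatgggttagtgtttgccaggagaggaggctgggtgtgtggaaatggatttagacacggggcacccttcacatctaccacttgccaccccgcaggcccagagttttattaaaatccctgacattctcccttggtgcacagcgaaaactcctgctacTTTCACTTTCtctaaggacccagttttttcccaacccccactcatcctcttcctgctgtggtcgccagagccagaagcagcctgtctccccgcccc
Serpinb6a, chr13:34002745-34003044, minus strand: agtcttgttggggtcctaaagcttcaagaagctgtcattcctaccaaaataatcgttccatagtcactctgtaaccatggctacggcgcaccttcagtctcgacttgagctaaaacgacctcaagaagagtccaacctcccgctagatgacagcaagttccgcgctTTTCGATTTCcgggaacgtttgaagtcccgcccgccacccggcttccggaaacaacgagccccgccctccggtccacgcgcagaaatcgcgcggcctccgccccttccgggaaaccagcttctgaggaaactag
Tnfsf10, chr3:27316827-27317126, plus strand: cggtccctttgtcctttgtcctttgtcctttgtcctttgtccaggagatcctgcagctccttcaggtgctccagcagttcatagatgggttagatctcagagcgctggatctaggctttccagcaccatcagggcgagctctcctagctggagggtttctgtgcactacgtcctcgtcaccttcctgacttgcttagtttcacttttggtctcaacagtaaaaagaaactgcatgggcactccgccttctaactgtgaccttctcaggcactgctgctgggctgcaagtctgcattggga

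Other motifs were searched in the same way. The gamma-activated sequence core TTCNNNGAA (8.3% of all promoters) is in those of Tnfrsf1a, Fas and Serpinb6a, where 1 of its copies, at -77 to -69, overlaps the interferon motif. The AP-1 site TGANTCA (7.81%) is in that of Fas, at -211 to -205. The letters of the TATA box, TATAAA (13.6%), are in that of Cflar, at -134 to -129 and -132 to -127. The GC box GGGCGG (35.7%) is in 5 of the 10 promoters. The RefSeq starts of Casp8, Serpinb9 and Tnfrsf1a lie 7128, 1291 and 361 bases inside the genes as the count files delimit them, as does the second start of Serpinb6a, at 66711 bases. Other starts of these genes were not examined.

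Read against all genes, the number of genes called among the 10 was near the share over all genes in the shCdk8 comparisons. In shCdk8-1 against cntrl in DMSO, 3 rose and 4 fell, where 30.0% of the 12590 genes tested rose and 30.6% fell (60.6% in all). In shCdk8-2, 2 rose and 5 fell, where 28.7% and 29.5% of all genes did (58.2% in all). The 1 gene deregulated over 2-fold in each, Tnfsf10, compares with 12.3% and 10.8% of all genes. The median log2 fold change of the 10 genes was -0.04 and -0.07, beside 0.002 and 0.004 over all genes, and their median absolute change was 0.33 and 0.20 beside 0.26 and 0.24. In SnxB the corresponding counts were 7 of 10 for shCdk8-1 (60.6% of 12772 genes) and 5 of 10 for shCdk8-2 (56.7%). Between both shCdk8 lines 2 of 10 differed in DMSO (22.0% of all genes) and 3 of 10 in SnxB (20.9%).

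For SnxB the background was lower. In cntrl cells 2 of the 10 genes fell and none rose, where 3.42% of all genes rose and 2.10% fell (5.53% in all). In shCdk8-1 cells Tnfsf10 alone passed (1.48% of all genes), and in shCdk8-2 cells Tnfsf10 and Tnfrsf1a (2.05%). Averaged over the 3 lines, 2 genes rose (Tnfsf10, Fas) and 5 fell (Tnfrsf1a, Fadd, Casp8, Cflar, Serpinb9), where 6.12% and 5.45% of all 12772 genes did (11.6% in all). At an adjusted p under 0.01, 3 of these 7 remained past the threshold, with no share of all genes at 0.01 given beside them. At the threshold of 0.05, 4 genes were called without shCdk8-1 DMSO replicate 1 or 2 or cntrl SnxB replicate 2. The 5 decreases were between 5.0% and 11.2%. None of the 10 genes had an SnxB effect that differed between cntrl and either shCdk8 line after adjustment with edgeR or with DESeq2. Over all genes 0.305% and 0.0548% did with edgeR. At an unadjusted p under 0.05, 2 did for shCdk8-1 and 4 for shCdk8-2, Serpinb9 and Serpinb6a in both. The share of all genes at that unadjusted threshold is not given here, and both comparisons use the same cntrl libraries. These counts thus carry no weight beside the adjusted result.

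**Figure D3:**
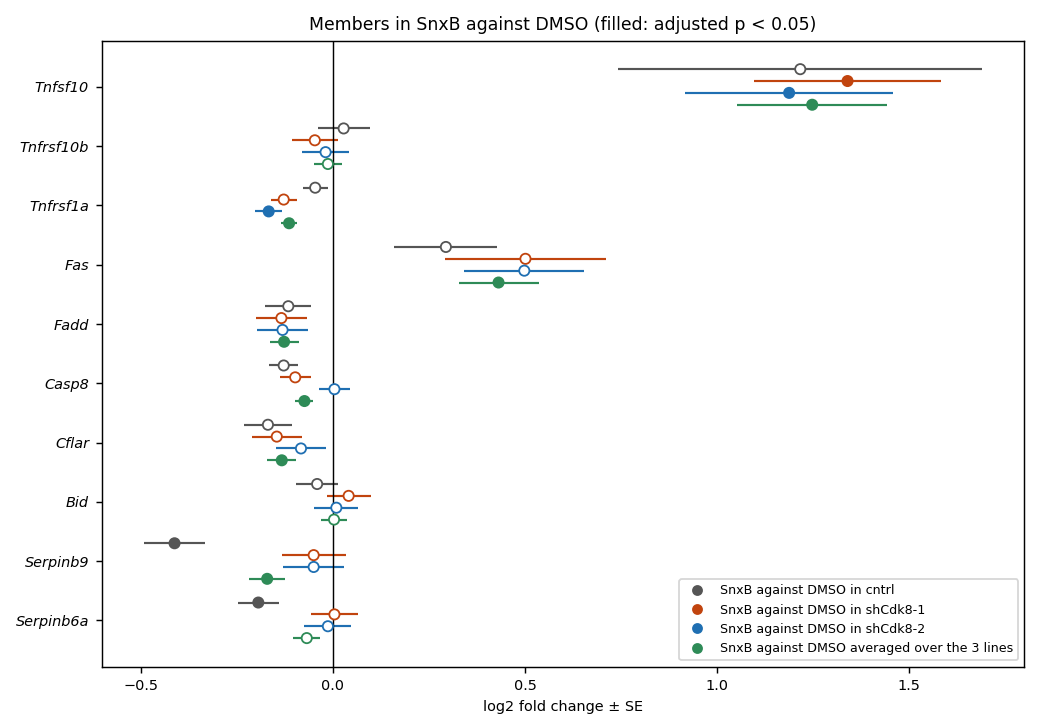
Log2 fold change (x axis, bars SE) of each gene in SnxB against DMSO in the cntrl, shCdk8-1 and shCdk8-2 lines and averaged over the 3 lines. Filled points have an adjusted p under 0.05. Tnfsf10 lies near 1.2 in every line, Fas between 0.29 and 0.50, and the decrease of Serpinb9 passes in cntrl cells but not in the shCdk8 lines.

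The rest of the death pathway was followed with 5 lists, whose counts of calls are read beside the 30.0% of all genes that rose and 30.6% that fell in shCdk8-1 and the 28.7% and 29.5% in shCdk8-2 cells. Of 17 other genes listed as ligands and receptors, a list not limited to death receptors, 9 were abundant enough to test. In shCdk8-1 cells 1 rose and 5 fell, and in shCdk8-2 cells 1 rose and 6 fell, with list medians of -0.22 and -0.42 on the log2 scale beside 0.002 and 0.004 over all genes. Tnfrsf26, a TNF receptor family gene, went from 3.7 ± 0.545 CPM to 0.308 ± 0.0953 and 0.163 ± 0.0484 (log2 -3.57 ± 0.26 and -4.46 ± 0.29). The ligand gene Tnf fell from 0.642 ± 0.183 CPM to 0.119 ± 0.0779 and 0.271 ± 0.139 (-2.38 ± 0.49 and -1.29 ± 0.41), and Ngfr, the gene of a neurotrophin receptor with a death domain, rose from 0.146 ± 0.0626 CPM to 0.58 ± 0.12 and 0.851 ± 0.163 (1.96 ± 0.46 and 2.5 ± 0.42). All 3 were at low counts.

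Of the 21 genes of the receptor complex and its regulators, 3 rose and 12 fell in shCdk8-1 and 3 rose and 10 fell in shCdk8-2 cells, beside 60.6% and 58.2% of all genes called in either direction. Traf1, an adaptor of TNF receptors, fell from 21.7 ± 1.36 CPM to 3.12 ± 0.258 and 4.91 ± 1.11 (log2 -2.80 ± 0.12 and -2.15 ± 0.11, adjusted p = 7.71e-12 and 9.89e-11). Among 13 tested genes of the executioner caspases and the apoptosome, 2 rose and 5 fell in shCdk8-1 and 4 rose and 5 fell in shCdk8-2, none over 2-fold. The medians of these lists in shCdk8-1 were -0.26 and 0.00 and in shCdk8-2 -0.17 and 0.07 on the log2 scale.

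Of 12 tested genes of the BCL-2 family 1 rose and 7 fell in shCdk8-1, and 2 rose and 6 fell in shCdk8-2, so 8 were called in each line, near the 60.6% and 58.2% of all genes. Pmaip1, which encodes the BH3-only protein NOXA, was at 12.5 ± 0.864 CPM in cntrl DMSO, at 3 reads in all in shCdk8-1 and at 1.38 ± 0.138 CPM in shCdk8-2. The ratio of its reads to cntrl was 0.00415 in shCdk8-1 (95% exact interval 0.000854 to 0.0122) and 0.111 in shCdk8-2 (0.0876 to 0.14). Bcl2, the family's founding survival gene, fell from 48.3 ± 2.06 CPM to 19.5 ± 1.51 and 21.5 ± 0.71 (log2 -1.31 ± 0.07 and -1.17 ± 0.07). The list medians were -0.16 and -0.08.

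Of 22 other clade B serpin genes, 4 were tested, since the others had too few reads, with medians of 0.02 and 0.40. Among them 1 rose and 1 fell in shCdk8-1, and 2 rose and 2 fell in shCdk8-2. Over all genes 60.6% and 58.2% were called in either direction. Serpinb6b rose from 0.444 ± 0.169 CPM to 5.2 ± 0.281 and 4.61 ± 0.589 (log2 3.50 ± 0.22 and 3.32 ± 0.22), and Serpinb8 fell from 15.8 ± 0.936 CPM to 3.23 ± 0.11 and 5.92 ± 0.0559 (-2.29 ± 0.11 and -1.43 ± 0.10). Serpinb9b, a near copy of Serpinb9 and named after its values were seen, was the 1 serpin of this list that SnxB changed in cntrl cells, from 105.2 ± 6.66 to 76.3 ± 4.08 CPM (-0.46 ± 0.05, adjusted p = 7.13e-05). In the other lists the calls with SnxB in cntrl cells are read beside the 5.53% of all genes that passed. They were 1 decrease among ligands and receptors, 2 in the receptor complex, and 0 among caspases and the BCL-2 family. At an unadjusted p under 0.05, 2 genes of the caspase list and 6 of the BCL-2 family passed. The share of all genes at that unadjusted threshold is not given here, so these counts cannot be read as an excess.

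**Figure D4:**
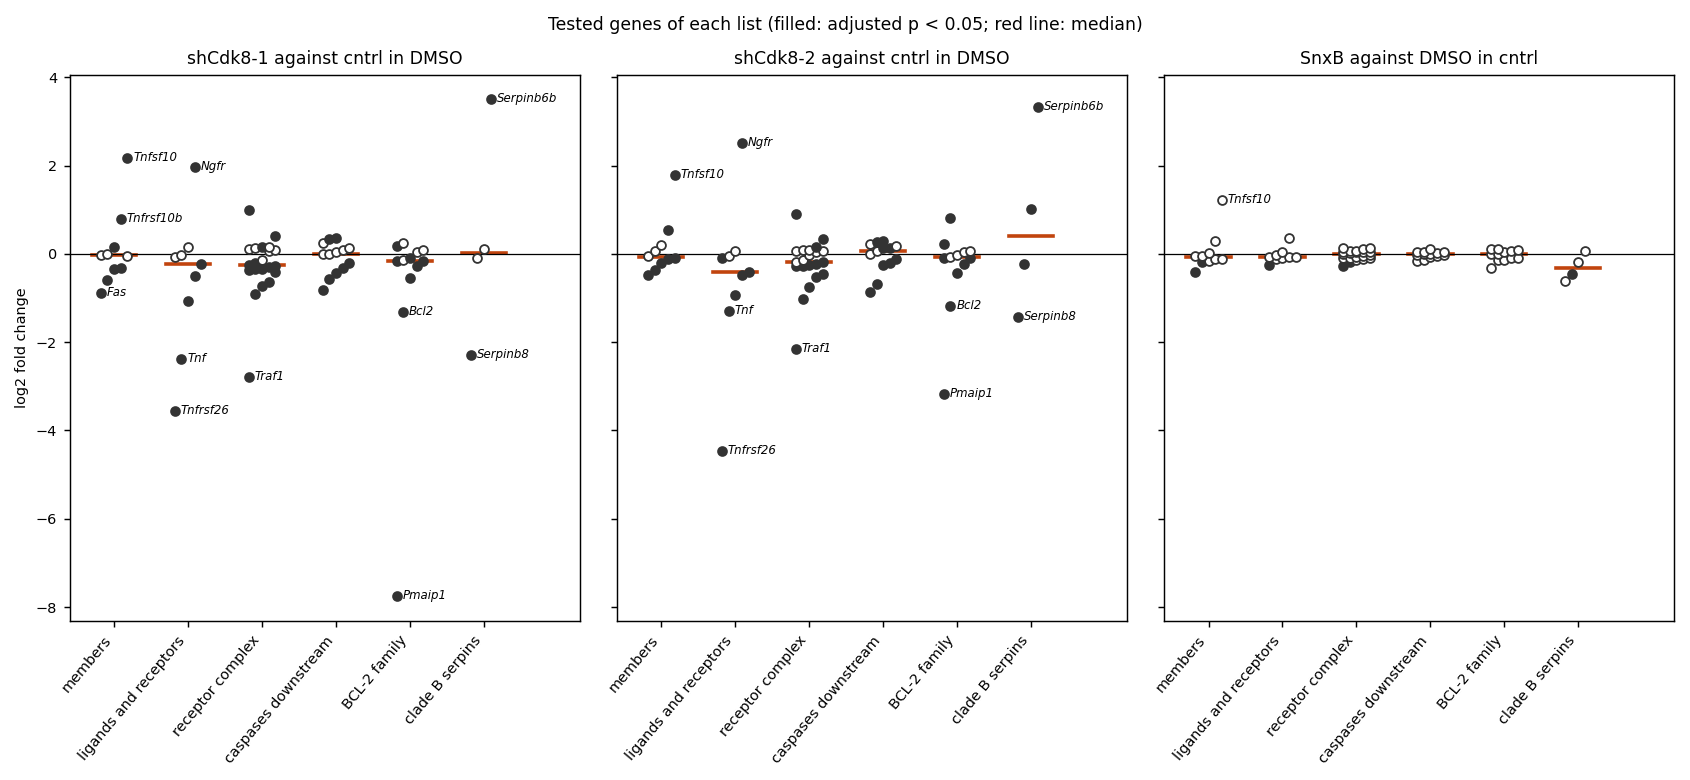
Log2 fold change (y axis) of every tested gene of the 10-gene list (members) and of 5 pathway lists, in shCdk8-1 and shCdk8-2 against cntrl in DMSO and in SnxB against DMSO in cntrl cells. Each point is 1 gene, filled where the adjusted p is under 0.05, and red lines are medians. Pmaip1, Tnfrsf26 and Traf1 lie lowest and Serpinb6b highest in the shCdk8 panels, and the fitted value of Pmaip1 in shCdk8-1 rests on 3 reads.

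The genes most like the 3 genes of widest range were sought over the 18 libraries among genes of at least 1 CPM on average, with Pearson's r of log2(CPM + 0.5). Libraries of a line share their hairpin and history, so r mostly orders genes by their line differences. For Tnfsf10 these were Rab11fip4 (r = 0.948), Fgfrl1 (0.937) and Cep57l1 (0.936). For Fas they were Ranbp3l (0.914), Hbp1 (0.903) and L3hypdh (0.89). For Tnfrsf10b they were Stra6 (0.985), Padi3 (0.982) and Kif26a (0.982), out of 11179 genes compared.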

How the data were processed

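RNA of 18 E0771 libraries was sequenced as single-end reads of 50 bases. The authors trimmed reads with Trimmomatic, aligned them to GRCm38 with STAR and counted exonic reads per gene with featureCounts in reverse-stranded mode on a GENCODE annotation. The deposited files hold raw counts, with reads of several locations or genes left out by the default settings. Symbols came from GENCODE and matched 50376 of 50686 genes. The headers of shCdk8-2 files carry other replicate numbers than the labels, and the labels were used.

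Counts were tested with edgeR 4.0.16 (R 4.3.3) by glmQLFit and glmQLFTest, with TMM scaling, filterByExpr (minimum count 10, minimum total 15) and Benjamini-Hochberg adjustment over all genes tested. Comparisons in DMSO and SnxB in cntrl used 12 libraries (12590 genes), the others 18 (12772 genes). Genes with an adjusted p under 0.05 were called changed, and deregulated with a fold above 2 as well. The SE is the fold change divided by the root of the F statistic. Printed CPM are TMM-scaled over 18 libraries, and RPKM divide them by exon length. Alternatives were no filter, a filter of 1 CPM in 3 libraries, DESeq2 size factors, library totals, DESeq2 1.42.0, glmTreat, a replicate block, other sets of libraries and each library left out. The average over the 3 lines was added after the data were seen. Scripts were tested on simulated data. Motifs were searched on both strands of RefSeq promoters.

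The genes and lists were chosen with earlier results of these data known. Named were the 10 genes, Cdk8 and Cdk19, at most 4 genes per pathway list deregulated in both shCdk8 lines or by SnxB in cntrl cells, and the 3 genes most like each of the 3 with the widest range. Values that missed the test and lay under 0.10 on the log2 scale were not given singly. No pair of libraries was identical, and same-group libraries differed by more than sampling noise. No pair of groups had all 3 correlations of same-numbered libraries over 0.1. The highest mean was 0.145, between cntrl and shCdk8-2 in SnxB (0.247, 0.058 and 0.131). Since the shCdk8-2 headers carry other replicate numbers, this check cannot decide whether libraries were paired.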

Additional observations from a re-analysis of the deposited data

Results flagged for a closer look

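The shCdk8 lines carry different hairpins against the same gene. In a direct test 2 of the 10 genes differed between these lines in DMSO, beside 22.0% of all genes. In SnxB it was 3 of 10, beside 20.9%, so both counts were near the share over all genes. Fas was higher in shCdk8-2 than in shCdk8-1 by 1.087 on the log2 scale in DMSO and by 1.088 in SnxB. Tnfrsf10b was lower in shCdk8-2, with values of -0.254 in DMSO and -0.223 in SnxB. Tnfrsf1a was lower in SnxB, with a value of -0.118. Adjusted p-values of edgeR were 9.73e-05 and 0.000109 for Fas, 0.00772 and 0.0122 for Tnfrsf10b, and 0.0187 for Tnfrsf1a. The call for Tnfrsf1a was lost in 5 of 25 alternatives, without the filter on low counts (0.177), in a fit of only the compared groups (0.0914) and without shCdk8-1 SnxB replicate 2 or shCdk8-2 SnxB replicate 2 or 3 (up to 0.0942). Cdk8 itself was higher in shCdk8-2 than in shCdk8-1 by 0.85 in DMSO and 0.77 in SnxB (adjusted p = 3.07e-07 and 4.59e-07). Its part in these differences was not tested.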

How the results depend on the processing

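Values of the 10 genes were recomputed 1682 times under the alternatives, the test against a 2-fold change apart: 1553 kept direction and side of the threshold, 104 lost the call, 21 gained it and 4 turned sign, all 4 of them interactions that missed the test. Those were, with a library left out, Tnfsf10 in shCdk8-1 (-0.509 to 0.414) and Fas in shCdk8-1 (-0.097 to 0.355). Tnfsf10, Tnfrsf10b, Cflar, Serpinb9 and Serpinb6a kept their calls in both shCdk8 lines in DMSO under the 19 alternatives to the main test and scaling, as did Fas in shCdk8-1. A fold above 2 beside the adjusted p left 1 gene (Tnfsf10, or Fas between the shCdk8 lines) in each comparison of lines and in SnxB in shCdk8-1, shCdk8-2 and averaged over the lines, and 0 in SnxB in cntrl. The glmTreat test against 2-fold left 1 in shCdk8-1 in DMSO and in either line in SnxB, and 0 in the other comparisons. At an adjusted p under 0.01 the count was 1 for SnxB in cntrl, 0 for SnxB in shCdk8-2, 1 between the shCdk8 lines in SnxB and 3 for the average. Without the filter it was 4 between the shCdk8 lines in DMSO and 1 for SnxB in shCdk8-2. DESeq2 gave 2 for SnxB in shCdk8-1, and the fit of all libraries gave 1 for SnxB in cntrl. With single libraries left out the counts ran from 1 to 4 between the shCdk8 lines in DMSO, 1 to 3 in SnxB, 1 to 2 for SnxB in cntrl, 0 to 2 for SnxB in shCdk8-2 and 4 to 7 for the average. The share of all genes under each changed rule is not given beside these counts, so they describe the 10 genes alone. Scaling to library totals moved the share of higher calls for SnxB in cntrl from 61.9% to 48.8% over all genes. The replicate block, over numbers not known to pair the libraries, gave 1 called gene for SnxB in cntrl. Depth limits Tnfsf10, with 15 reads in cntrl DMSO, and Fas.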
